A study of Mus musculus with 9 samples.

Results

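The 10 genes described here encode parts of the MHC class I antigen presentation route, and were taken by symbol from the deposited expression table. They are the heavy chains H2-K1 and H2-D1, the light chain B2m, the peptide transporter subunits Tap1 and Tap2, the loading factor Tapbp, the transactivator Nlrc5, and the immunoproteasome subunits Psmb8, Psmb9 and Psmb10. All 10 of 10 were found among the 18571 genes of the table, and all 10 passed the low-count filter that left 14696 genes for testing.

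The table holds poly-A RNA-seq of microglia, the resident macrophages of the brain, from 9 libraries in 3 genotype groups of 3 on a C57BL6/j background. The groups are wild type (WT), APP/PS1, a transgenic amyloid model of Alzheimer's disease, and APP/PS1:Cx3cr1-CreER:Cx43-flox/flox, called Cx43 cKO here. In the last of these, a Cre recombinase driven from Cx3cr1 and switched on by tamoxifen deletes floxed Cx43 (Gja1, a gap junction connexin). Mice were 9 months old when cortex and hippocampus were taken. The protocol shared by all samples gives tamoxifen by gavage at 0.1 mg/g for 5 days at 8 months of age. The cells were captured on plates coated for CD45, a surface protein of all leukocytes and not of microglia alone. Neither WT nor APP/PS1 mice are labelled as carrying Cre or floxed alleles, so effects of Cre itself and of Cx43 loss cannot be told apart. The labels do not say whether a library is 1 animal or a pool, so the tests measure the spread between these libraries, which may be technical.

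Class I molecules show peptides from inside the cell to CD8 T cells. The proteasome cuts cytosolic proteins, TAP pumps the peptides into the endoplasmic reticulum, tapasin holds an empty heavy chain and B2m at TAP until a peptide binds, and the loaded complex travels to the surface. Interferon signalling raises the genes of the route, in part through NLRC5, and swaps the 3 catalytic proteasome subunits PSMB5, PSMB6 and PSMB7 for PSMB8, PSMB9 and PSMB10. Resting microglia are known to show little class I on their surface, and plaque-associated microglia of amyloid models to express more B2m.

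Total estimated counts ran from 18907681 to 19565354 per library. The targeted gene was lower but present in the Cx43 cKO libraries: Gja1 had 682, 642 and 716 counts for WT, 727, 688 and 788 for APP/PS1, and 514, 484 and 539 for Cx43 cKO (log2 change -0.56 ± 0.06 SE against APP/PS1, edgeR adjusted p 7.95e-09). Astrocytes also express Gja1, and the summed level of 8 astrocyte markers was 438 to 448, 637 to 657 and 490 to 500 CPM (counts over the TMM-scaled library size) in the 3 groups in that order. The part of astrocyte RNA in the Gja1 counts was not tested. Cx3cr1 itself, the locus of the Cre driver, averaged 2260, 2231 and 1214 CPM. The Y-linked gene Ddx3y had 4137 to 4258 counts for WT, 4170 to 4538 for APP/PS1, and 0, 1 and 2 for Cx43 cKO, so sex and knockout cannot be told apart in any comparison with that group. Summed CPM of 8 microglia markers was 18518 to 18829, 20359 to 20652 and 17771 to 17968. The 10 neutrophil markers summed to 2937 to 2956, 900 to 918 and 8529 to 8673 CPM, and 8 monocyte and dendritic cell markers to 346 to 356, 107 to 123 and 624 to 642. No marker of these lists was at 0 in a whole group. Many genes changed: at an edgeR adjusted p of 0.05, 59.0% of tested genes were called between APP/PS1 and WT, 55.0% between Cx43 cKO and APP/PS1, and 47.7% between Cx43 cKO and WT. Each count of called members below is to be read against those shares.

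Of the 10 genes, 7 lie on chromosome 17 in the mouse MHC. In RefSeq coordinates of GRCm38.p6, the build in the submitters' processing notes, Tapbp spans chr17:33919478-33929290, H2-K1 spans chr17:33996012-34000619, and H2-D1 spans chr17:35263094-35267497. Between the heavy chains lies a run of neighbours made of Psmb9 (chr17:34182030-34187330), Tap1 (chr17:34187556-34197225), Psmb8 (chr17:34198195-34201454) and Tap2 (chr17:34204479-34216321). B2m lies outside the MHC at chr2:122147687-122153082, as do Nlrc5 at chr8:94434335-94527272 and Psmb10 at chr8:105935728-105938392. Tap1 and Psmb9 face away from each other with start sites 226 bases apart.

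Promoter windows (4) of 250 bases before and 50 after a start site are printed, because 3 of them carry the same motifs beside genes that moved differently, and the fourth lies between a pair of genes that moved in opposite directions. They are RefSeq sequences of GRCm38.p6, read on the strand of the gene named. Capitals mark matches, on either strand, to an interferon regulatory factor core (AANNGAAA), the NF-kB consensus, the shorter form of the cyclic AMP response element (TGACG) and the CCAAT box (CCAAT, which reads ATTGG on the other strand).
H2-K1 chr17:34000298-34000597, minus strand: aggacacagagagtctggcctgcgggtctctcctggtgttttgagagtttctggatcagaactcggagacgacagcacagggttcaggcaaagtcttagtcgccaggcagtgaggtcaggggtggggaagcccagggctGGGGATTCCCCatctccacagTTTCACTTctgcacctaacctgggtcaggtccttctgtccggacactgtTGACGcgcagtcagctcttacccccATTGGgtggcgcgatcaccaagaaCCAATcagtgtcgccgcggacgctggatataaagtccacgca
H2-D1 chr17:35262844-35263143, plus strand: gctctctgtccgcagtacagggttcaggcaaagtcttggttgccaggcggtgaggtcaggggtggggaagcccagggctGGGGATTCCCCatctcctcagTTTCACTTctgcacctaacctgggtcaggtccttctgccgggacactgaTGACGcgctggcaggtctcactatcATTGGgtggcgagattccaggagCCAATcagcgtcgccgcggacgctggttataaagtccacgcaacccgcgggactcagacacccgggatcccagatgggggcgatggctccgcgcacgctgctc
B2m chr2:122147437-122147736, plus strand: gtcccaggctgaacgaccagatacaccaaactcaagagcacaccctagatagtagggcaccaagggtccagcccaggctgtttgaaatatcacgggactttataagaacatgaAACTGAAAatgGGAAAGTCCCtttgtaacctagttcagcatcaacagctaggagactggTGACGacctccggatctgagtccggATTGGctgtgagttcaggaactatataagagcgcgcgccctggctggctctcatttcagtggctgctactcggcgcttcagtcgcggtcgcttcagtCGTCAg
Tap1 and Psmb9 chr17:34187306-34187605, plus strand: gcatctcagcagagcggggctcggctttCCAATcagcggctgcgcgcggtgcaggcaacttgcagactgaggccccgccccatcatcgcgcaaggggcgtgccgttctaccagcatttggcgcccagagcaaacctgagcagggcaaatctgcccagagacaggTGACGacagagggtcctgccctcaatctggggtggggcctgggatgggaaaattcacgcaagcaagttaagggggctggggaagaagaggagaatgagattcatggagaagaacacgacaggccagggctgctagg
Both heavy chain windows and the B2m window hold all 4 motifs. In each, an interferon core and an NF-kB match stand side by side upstream of a TGACG and a CCAAT box, with the NF-kB match first in the heavy chains and second in B2m. The NF-kB matches of the heavy chains are overlapping matches on both strands. Over 228 aligned columns, 206 bases of the H2-K1 and H2-D1 windows were identical (90.4%). The window between Tap1 and Psmb9 holds a TGACG and a CCAAT box, and no letters matching the other pair. Of all 32851 RefSeq promoter windows of this length, 23.9% hold the interferon core, 8.46% the NF-kB consensus, 20.8% TGACG and 37.4% the CCAAT box. The windows of Tapbp, Psmb8 and Psmb10 are not printed: that of Tapbp matches only the CCAAT box, and the letters of the 4 motifs do not occur in the other pair. A second RefSeq window of H2-K1 overlaps the printed one and holds the same motifs. Both H2-K1 windows lie inside the gene span given above, so their start sites are not the outer end of that span. Tap2 and Nlrc5 have no window printed.

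On the authors' TPM scale, which allows for transcript length, B2m was the highest of the 10 genes in every group and Nlrc5 the lowest. In WT, B2m averaged 4443 ± 130 TPM (SD, n = 3), H2-D1 2033 ± 69.1 and H2-K1 1787 ± 29.4. The loading and proteasome genes lay far below: Tapbp averaged 241 TPM, Psmb8 136, Psmb10 90.2, Tap2 84.4, Psmb9 77.0, Tap1 55.4 and Nlrc5 7.27. Neighbours in this order did not overlap across the 3 WT libraries, except Psmb10 (85.8 to 95.7 TPM) and Tap2 (80.8 to 90.2 TPM). Per-gene comparisons between groups below use CPM on TMM-scaled library sizes, which does not allow for length.

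**Figure D1:**
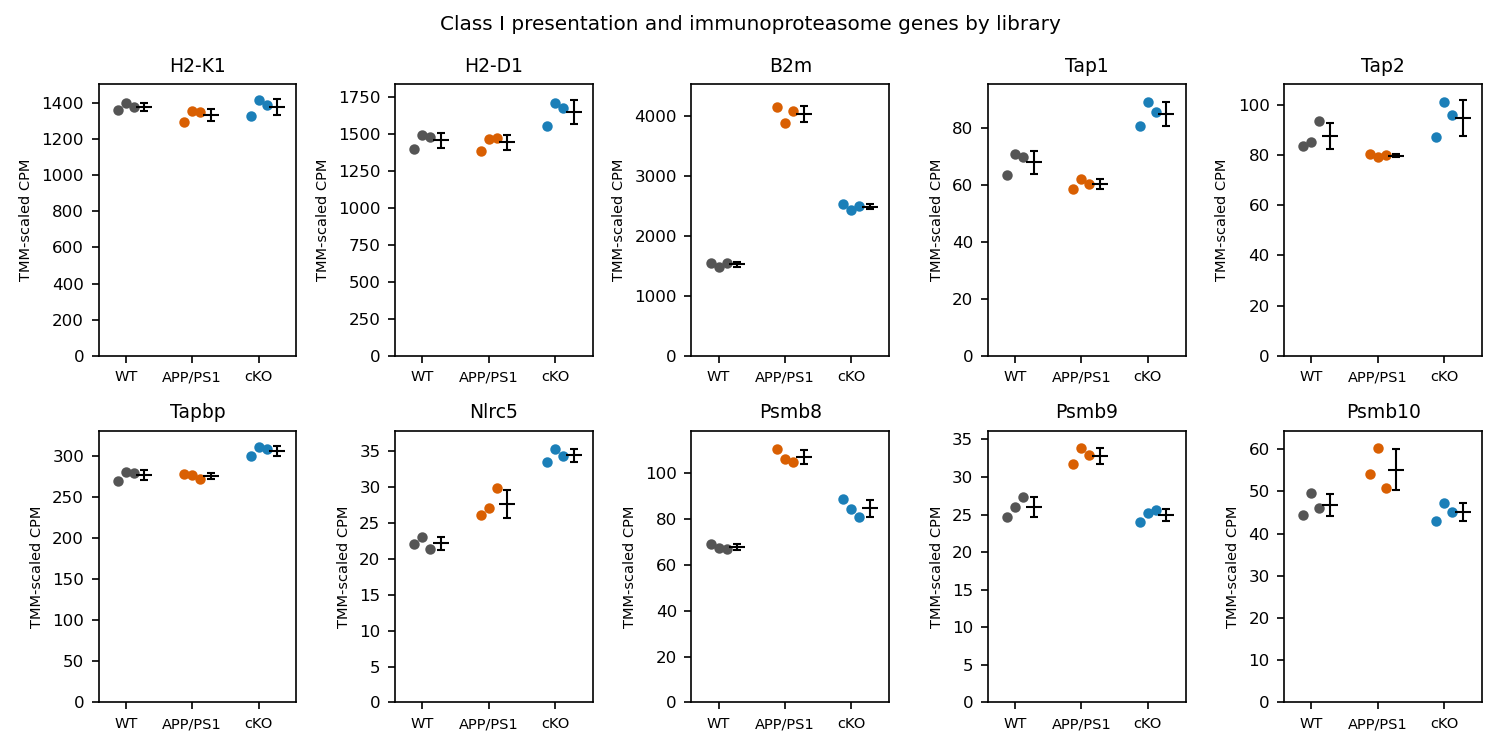
TMM-scaled CPM (vertical axes, linear and from 0) of each gene by group. Points are libraries in label order, and the bar is mean ± SD of 3 libraries. On this scale B2m, Psmb8, Psmb9 and Psmb10 are highest in APP/PS1 and Tap1, Tap2, Tapbp, H2-D1 and Nlrc5 in Cx43 cKO (on TPM, H2-D1, Tap2, Tapbp, Psmb9 and Psmb10 are highest in WT), and H2-K1 stays between 1291 and 1415 CPM.

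Between APP/PS1 and WT the light chain rose most, the immunoproteasome subunits and Nlrc5 rose less, the TAP subunits were slightly lower, and neither the heavy chains nor Tapbp passed the test. In all, 5 of 10 genes were called higher, against 26.9% of tested genes, and 2 were called lower, against 32.0%. The groups did not overlap in 8 of the 10, against 63.5% of tested genes. Only B2m and Psmb8 were both called and changed at least 1.5-fold, which 19.3% of tested genes did. The TAP direction turned with offsets, which correct each library for transcript length and GC content, and those of Nlrc5, Psmb9 and Psmb10 turned on log2(TPM + 1). With the offsets 8 genes were called higher, against 25.9%, and H2-K1 alone lower, against 28.2%. The median log2 change was 0.12 over the 10 genes and -0.04 over all tested genes.

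Between Cx43 cKO and APP/PS1, the 10 genes went in both directions. The genes H2-D1, Tap1, Tap2, Tapbp and Nlrc5 were called higher, while B2m and all 3 immunoproteasome subunits were called lower. That made 5 of 10 called higher, against 27.3% of tested genes, and 4 called lower, against 27.7%. With length and GC offsets the calls of Tap2, Tapbp and B2m were lost and H2-K1 was called higher, which gave 4 higher, against 26.6% of tested genes, and 3 lower, against 25.6%. The groups did not overlap in 9 of 10, against 59.7%, and B2m alone was called at 1.5-fold or more, against 17.5%. The median log2 change was 0.10 over the 10 genes and -0.01 over all tested genes.

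Between Cx43 cKO and WT, 6 of 10 genes were called, against 47.7% of tested genes, and all 6 were higher, a direction called in 24.7%: H2-D1, B2m, Tap1, Tapbp, Nlrc5 and Psmb8. With TMM scaling edgeR called 0 lower, 0 fell at an unadjusted p under 0.05, and the DESeq2 Wald test called 0 lower. On library totals edgeR called 4 higher and 3 lower (H2-K1, Psmb9 and Psmb10), and limma on log2(TPM + 1) called 3 higher and 3 lower. With length and GC offsets 7 were called higher, against 26.4%, and H2-K1 alone was called lower (log2 -0.07, edgeR adjusted p 0.0102), against 22.3%. The groups did not overlap in 6 of 10, against 54.6%, and B2m and Nlrc5 were called at 1.5-fold or more, against 12.8%. The median log2 change was 0.16 over the 10 genes and -0.01 over all tested genes. These comparisons share libraries, so a value in one is not independent of the others.

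B2m, the light chain that class I molecules need to reach the surface stably, had the largest log2 change of the 10 genes in each comparison with TMM scaling. Its level was 1547, 1477 and 1554 CPM for WT, 4151, 3880 and 4079 for APP/PS1, and 2531, 2441 and 2497 for Cx43 cKO. No 2 groups overlapped, and every Cx43 cKO library lay between the WT and APP/PS1 ranges. B2m was 2.65-fold higher in APP/PS1 than WT (log2 change 1.40 ± 0.03 SE, edgeR adjusted p 6.47e-24) and ranked 289 of 14696 genes from the highest log2 change. It was lower in Cx43 cKO than APP/PS1 by 38.3% (log2 -0.70 ± 0.03, edgeR adjusted p 2.12e-17), and 1.63-fold above WT. Because these are bulk samples, a change in the share of cells that express a gene and in RNA per cell cannot be told apart, here and for every gene below.

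The B2m transcript is short, and short transcripts as a class moved with it. At 860 nt it falls in the shortest of 10 bins of genes by transcript length, whose median length is 850 nt and whose median log2 change was 0.53 between APP/PS1 and WT, -0.45 between Cx43 cKO and APP/PS1, and 0.14 between Cx43 cKO and WT. The longest bin, which holds Nlrc5, had medians of -0.12, 0.05 and -0.05. With offsets that remove the trend with length and GC content from each library, B2m was still higher in APP/PS1 than WT (log2 0.60, edgeR adjusted p 1.36e-21) and in Cx43 cKO than WT (0.58). The difference between Cx43 cKO and APP/PS1 was then -0.02 (edgeR adjusted p 0.493), so that call was lost. The source of the length trend was not tested.

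**Figure D2:**
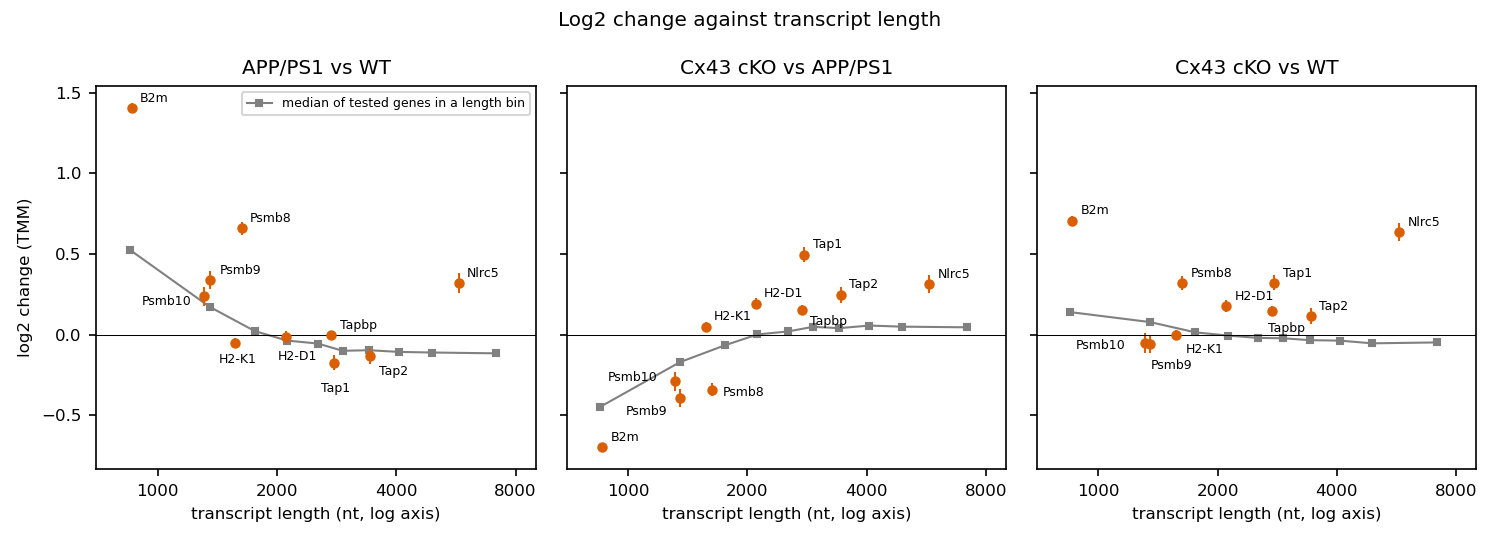
Log2 change with TMM scaling (vertical axis, shared by the 3 panels) against transcript length in nt (log axis). Orange points are the 10 genes with SE bars, and grey squares are medians of tested genes in 10 bins of length. The grey line runs from 0.53 to -0.12 in APP/PS1 against WT and from -0.45 to 0.05 in Cx43 cKO against APP/PS1, and B2m lies beyond it in all 3 panels.

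H2-K1 and H2-D1, the classical heavy chains of this strain, were not called between APP/PS1 and WT with TMM scaling, while B2m was. H2-K1 had 1356, 1400 and 1376 CPM for WT, 1291, 1355 and 1347 for APP/PS1, and 1327, 1415 and 1388 for Cx43 cKO. The APP/PS1 libraries all lay below the WT libraries, by less than 4% on average (log2 -0.05 ± 0.03, edgeR adjusted p 0.140), and the Cx43 cKO libraries overlapped both groups. Its call depended on the scaling: in APP/PS1 against WT the log2 change was -0.19 on library totals (edgeR adjusted p 1.61e-06) and -0.40 on log2(TPM + 1) (limma adjusted p 4.43e-07), both called lower, where the medians of all tested genes were -0.17 and -0.35. After length and GC offsets H2-K1 was lower in APP/PS1 than WT (log2 -0.22, edgeR adjusted p 1.98e-10) and higher in Cx43 cKO than APP/PS1 (0.15, edgeR adjusted p 3.96e-07). In those 2 comparisons all same-numbered libraries correlated over 0.1 in their deviations, though no label pairs them. APP/PS1 replicate 3 also correlated with Cx43 cKO replicate 2, at 0.133, against 0.118 with Cx43 cKO replicate 3. A fit that blocks on the replicate number called H2-K1 lower in APP/PS1 than WT (-0.05, edgeR adjusted p 0.000275) and higher in Cx43 cKO than APP/PS1 (0.05, edgeR adjusted p 0.000390). In Cx43 cKO against WT it was lower on library totals (-0.11, edgeR adjusted p 0.00180) and log2(TPM + 1) (-0.16, limma adjusted p 0.00113). Without Cx43 cKO replicate 1 the log2 difference from APP/PS1 was 0.08 (edgeR adjusted p 0.0334).

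H2-D1 was 1397, 1491 and 1480 CPM for WT, 1385, 1468 and 1473 for APP/PS1, and 1555, 1712 and 1675 for Cx43 cKO. WT and APP/PS1 overlapped (log2 -0.01 ± 0.04, edgeR adjusted p 0.766), and all 3 Cx43 cKO libraries lay above both. Between WT and APP/PS1, H2-D1 was called lower, at log2 -0.15 on library totals (edgeR adjusted p 0.000579), -0.15 on log2(FPKM + 1) (limma adjusted p 0.00749) and -0.41 on log2(TPM + 1) (limma adjusted p 4.24e-06), scales on which the median of all tested genes was itself below 0 (-0.17, -0.11 and -0.35), and higher by 0.07 with length and GC offsets (edgeR adjusted p 0.0236). The gain in Cx43 cKO was 14.2% over APP/PS1 (log2 0.19 ± 0.04, edgeR adjusted p 0.000131) and 13.1% over WT (edgeR adjusted p 0.000341). It held against APP/PS1 under every alternative tried. Against WT the log2 change was 0.07 on library totals (edgeR adjusted p 0.0871), and it was -0.02 on log2(TPM + 1) (limma adjusted p 0.685). Heavy chain counts are uncertain to the extent that reads were shared: of the 50-nt windows in H2-D1 transcripts, 14.3% also occur in transcripts of other genes, among them H2-Q1, H2-Q7, H2-Q6 and H2-K1. For H2-K1 the share is 7.90%, mostly with H2-D1.

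Set against B2m within each library, both heavy chains were lowest in APP/PS1. The TPM ratio of H2-K1 to B2m averaged 0.403 ± 0.0178 (SD, n = 3) for WT, 0.151 ± 0.00854 for APP/PS1 and 0.254 ± 0.0133 for Cx43 cKO. For H2-D1 to B2m the means were 0.458 ± 0.0256, 0.172 ± 0.0108 and 0.318 ± 0.0212. No 2 groups overlapped in either ratio, and each pair gave a two-sided exact permutation p of 0.1, the smallest that 3 against 3 libraries allow, or 0.125 adjusted over the 15 ratio comparisons made. A ratio within a library does not depend on scaling between libraries, but it does carry the difference in length between B2m and the heavy chains. On TPM the log2 ratio was higher in Cx43 cKO than APP/PS1 by 0.75 for H2-K1 to B2m and 0.89 for H2-D1 to B2m. Taken from the fit with length and GC offsets, an alternative chosen after seeing the data, the same differences were 0.17 and 0.13. In APP/PS1 against WT the differences were -1.41 and -1.42 on TPM and -0.81 and -0.52 from the offset fit.

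**Figure D3:**
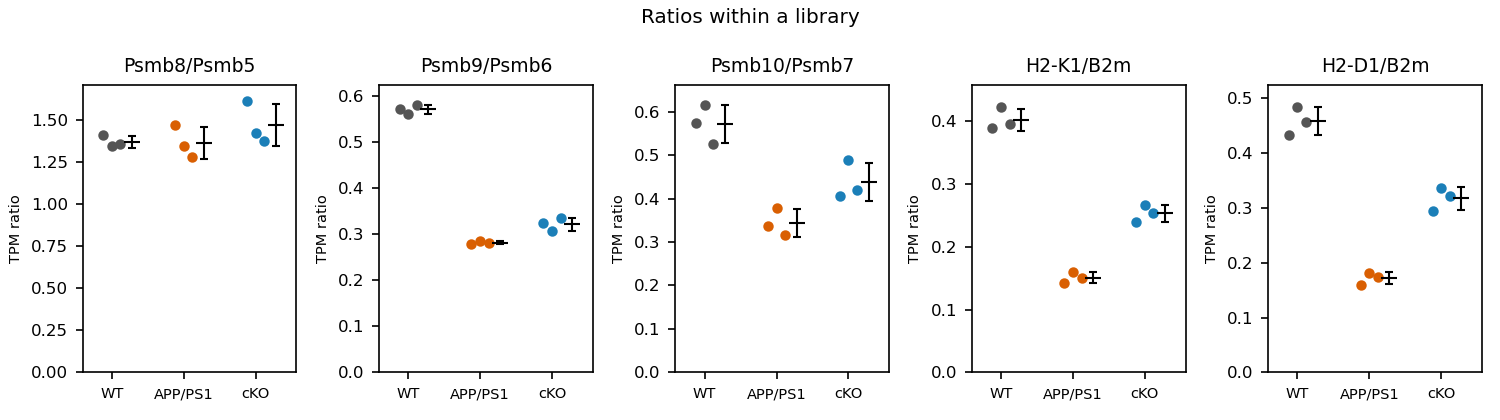
TPM ratios within each library (vertical axes, linear and from 0), with mean ± SD of 3 libraries per group. Psmb8/Psmb5 overlaps across the groups, while the other 4 ratios are highest in WT and lowest in APP/PS1 on this scale.

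Tap1 and Tap2, the partner subunits of the peptide transporter, were both lowest in APP/PS1 and highest in Cx43 cKO on the CPM scale, while on the TPM scale Tap2 was highest in WT. Tap1 had 63.6, 71.1 and 69.8 CPM for WT, 58.6, 62.2 and 60.5 for APP/PS1, and 80.7, 89.1 and 85.6 for Cx43 cKO. Every Cx43 cKO library exceeded every other library. Tap1 was 1.41-fold higher in Cx43 cKO than APP/PS1 (log2 0.49 ± 0.05, edgeR adjusted p 1.12e-09), and over all 23 alternatives this log2 change stayed between 0.33 and 0.69 and was called each time. Against WT it was 1.25-fold higher (log2 0.32, edgeR adjusted p 1.71e-06), which on log2(TPM + 1) was 0.12 (limma adjusted p 0.0514). The small fall in APP/PS1 against WT (log2 -0.17 ± 0.05, edgeR adjusted p 0.00289) turned to 0.06 with length and GC offsets (edgeR adjusted p 0.181).

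Tap2 had 83.6, 85.3 and 93.4 CPM for WT, 80.2, 79.1 and 80.0 for APP/PS1, and 87.0, 101 and 95.9 for Cx43 cKO. The Cx43 cKO libraries lay above the APP/PS1 libraries and overlapped WT. The rise over APP/PS1 was 1.19-fold (log2 0.25 ± 0.05, edgeR adjusted p 0.000213), and with length and GC offsets it was 0.06 (edgeR adjusted p 0.191). Against WT, Tap2 did not pass in Cx43 cKO (log2 0.11, edgeR adjusted p 0.0586), and it did without WT replicate 3 (0.17, edgeR adjusted p 0.0111) or Cx43 cKO replicate 1 (0.17, edgeR adjusted p 0.0030), with the DESeq2 Wald test (0.14, DESeq2 adjusted p 0.0408) and with length and GC offsets (0.20, edgeR adjusted p 0.000141), while on log2(TPM + 1) it was -0.08 (limma adjusted p 0.200). The fall in APP/PS1 against WT (log2 -0.13 ± 0.05, edgeR adjusted p 0.0259) was not called by the DESeq2 Wald test (-0.11, DESeq2 adjusted p 0.0951), lost its call without WT replicate 3 (-0.08), APP/PS1 replicate 2 (-0.13) or APP/PS1 replicate 3 (-0.14), and became a rise of 0.13 with the offsets (edgeR adjusted p 0.00750). Of the 50-nt windows of Tap2 transcripts, 12.6% are shared, mainly with the predicted gene Gm15821.

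Tapbp encodes tapasin, the bridge between TAP and the empty class I molecule. It had 270, 281 and 279 CPM for WT, 278, 277 and 272 for APP/PS1, and 299.5, 311 and 309 for Cx43 cKO. WT and APP/PS1 overlapped (edgeR adjusted p 0.908), and Cx43 cKO stood 11.2% above APP/PS1 (log2 0.15 ± 0.03, edgeR adjusted p 9.19e-05). On library totals (log2 -0.14, edgeR adjusted p 0.000147) and log2(TPM + 1) (-0.40, limma adjusted p 1.61e-07) Tapbp was called lower in APP/PS1 than WT, by about as much as the medians of all tested genes (-0.17 and -0.35), and on both its difference between Cx43 cKO and WT was not called (0.04 and -0.05). After length and GC offsets it was instead higher in APP/PS1 than WT (log2 0.19, edgeR adjusted p 1.29e-07), and the difference between Cx43 cKO and APP/PS1 was 0.02 (edgeR adjusted p 0.580). Its windows are the most shared of the 10 genes, at 20.7%, chiefly with Gm19412.

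Nlrc5, the transactivator that binds class I promoters together with the RFX factors, was lowest in WT and highest in Cx43 cKO on the CPM scale. Its level was 22.1, 23.1 and 21.3 CPM for WT, 26.1, 27.1 and 29.9 for APP/PS1, and 33.5, 35.3 and 34.4 for Cx43 cKO, with no overlap between any pair of groups. It was 1.25-fold higher in APP/PS1 than WT (log2 0.32 ± 0.06, edgeR adjusted p 5.51e-05), 1.24-fold higher in Cx43 cKO than APP/PS1 (0.31 ± 0.06, edgeR adjusted p 3.55e-05) and 1.55-fold higher in Cx43 cKO than WT (0.63 ± 0.06, edgeR adjusted p 7.03e-10). Both increases in Cx43 cKO held under all 23 alternatives, between 0.18 and 0.49 over APP/PS1 and between 0.37 and 0.70 over WT. The change in APP/PS1 against WT was 0.13 on log2(FPKM + 1) (limma adjusted p 0.0518) and -0.07 on log2(TPM + 1) (limma adjusted p 0.303), a scale on which the median of all tested genes was -0.35. None of the 50-nt windows of Nlrc5 is shared with another gene.

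The immunoproteasome subunits were all highest in APP/PS1 on the CPM scale, while on the TPM scale Psmb9 and Psmb10 were highest in WT. Psmb8, also called LMP7 and the replacement for PSMB5, had 69.0, 67.2 and 67.0 CPM for WT, 110, 106 and 105 for APP/PS1, and 88.5, 84.2 and 80.9 for Cx43 cKO. The groups stood apart, with Cx43 cKO in the middle. It was 1.58-fold higher in APP/PS1 than WT (log2 0.66 ± 0.04, edgeR adjusted p 1.08e-13), at 0.790 of the APP/PS1 level in Cx43 cKO (-0.34 ± 0.04, edgeR adjusted p 4.05e-08), and 1.25-fold higher in Cx43 cKO than WT (0.32, edgeR adjusted p 3.08e-07). Psmb8 was called in the same direction in all 3 comparisons under all 23 alternatives, with a log2 change of 0.67 between APP/PS1 and WT once length and GC were offset. Of its 50-nt windows, 5.83% also occur in Gm20496.

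Psmb9 (LMP2, the replacement for PSMB6) had 24.6, 26.0 and 27.3 CPM for WT, 31.7, 33.9 and 32.9 for APP/PS1, and 24.05, 25.2 and 25.6 for Cx43 cKO. Its Cx43 cKO libraries overlapped WT (log2 -0.06, edgeR adjusted p 0.424), but the gene was called lower there on library totals (-0.17, edgeR adjusted p 0.0158), log2(FPKM + 1) (-0.17, limma adjusted p 0.00535) and log2(TPM + 1) (-0.26, limma adjusted p 0.000340). It was 1.26-fold higher in APP/PS1 than WT (log2 0.34 ± 0.06, edgeR adjusted p 8.40e-06) and fell to 0.760 of that level in Cx43 cKO (-0.40 ± 0.06, edgeR adjusted p 1.16e-06). The fall held under all 23 alternatives, between -0.42 and -0.21, while the difference of APP/PS1 from WT was -0.05 on log2(TPM + 1) (limma adjusted p 0.291). Psmb9 and Tap1, which start from the printed window, were thus called in opposite directions with TMM scaling in both comparisons that involve APP/PS1, Tap1 lower and Psmb9 higher against WT, then Tap1 higher and Psmb9 lower in Cx43 cKO. With length and GC offsets both were above 0 in APP/PS1 against WT (log2 0.06 for Tap1, which was not called, and 0.17 for Psmb9), and on log2(TPM + 1) both were below 0. Annotated transcripts of the pair overlap, with 11.1% of Psmb9 windows also in Tap1, and no source used here states whether counting used strand.

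Psmb10 (MECL-1, the replacement for PSMB7) had 44.4, 49.7 and 46.2 CPM for WT, 54.0, 60.4 and 50.9 for APP/PS1, and 42.9, 47.3 and 45.1 for Cx43 cKO. APP/PS1 lay above both other groups, which overlapped (log2 -0.05, edgeR adjusted p 0.504). In Cx43 cKO against WT it was called lower on library totals (-0.16, edgeR adjusted p 0.0272) and on log2(TPM + 1) (-0.25, limma adjusted p 0.00564). The gene was 1.18-fold higher in APP/PS1 than WT (log2 0.24 ± 0.06, edgeR adjusted p 0.00134) and 18.1% lower in Cx43 cKO than APP/PS1 (-0.29 ± 0.06, edgeR adjusted p 0.000250). The rise over WT was not called on library totals (0.10, edgeR adjusted p 0.138) or log2(FPKM + 1) (0.09, limma adjusted p 0.207). On log2(TPM + 1) the difference from WT turned to -0.16 (limma adjusted p 0.0391), and the difference of Cx43 cKO from APP/PS1 was -0.09 (limma adjusted p 0.232).

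The constitutive subunits that PSMB8, PSMB9 and PSMB10 replace were also called higher in APP/PS1 than WT and lower in Cx43 cKO than APP/PS1 with TMM scaling. In APP/PS1 against WT the log2 change was 0.67 for Psmb5, 1.37 for Psmb6 and 0.96 for Psmb7. In Cx43 cKO against APP/PS1 they fell by 0.45, 0.60 and 0.61 on the log2 scale, and against WT they rose by 0.22, 0.77 and 0.36, a comparison in which Psmb9 (-0.06) and Psmb10 (-0.05) did not pass with TMM scaling and were called lower on library totals and on TPM. For Psmb5 the difference from APP/PS1 was -0.08 with length and GC offsets (edgeR adjusted p 0.136), and that from WT was 0.11 on library totals (edgeR adjusted p 0.0590) and 0.02 on log2(TPM + 1) (limma adjusted p 0.651). On the TPM scale no mean ratio of replacement to constitutive subunit was higher in APP/PS1 than WT. Psmb8 to Psmb5 averaged 1.37 ± 0.0367 for WT, 1.36 ± 0.0948 for APP/PS1 and 1.47 ± 0.124 for Cx43 cKO on the TPM scale, with overlap between all groups (exact permutation p 0.9, 0.4 and 0.2). Psmb9 to Psmb6 averaged 0.571, 0.281 and 0.321, and Psmb10 to Psmb7 averaged 0.571, 0.344 and 0.438. In those 2 ratios no groups overlapped, again at the smallest exact permutation p of 0.1 (0.125 adjusted over 15). Psmb5, Psmb6 and Psmb7 have shorter transcripts (761, 798 and 1160 nt) than their replacements (1628, 1352 and 1311 nt). In the fit with length and GC offsets, the log2 difference of Psmb8 from Psmb5 was 0.45 in APP/PS1 against WT and -0.28 in Cx43 cKO against APP/PS1, and that of Psmb9 from Psmb6 in Cx43 cKO against APP/PS1 was -0.08, against 0.19 on TPM. The direction of those ratios in those comparisons therefore depends on this correction.

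**Figure D4:**
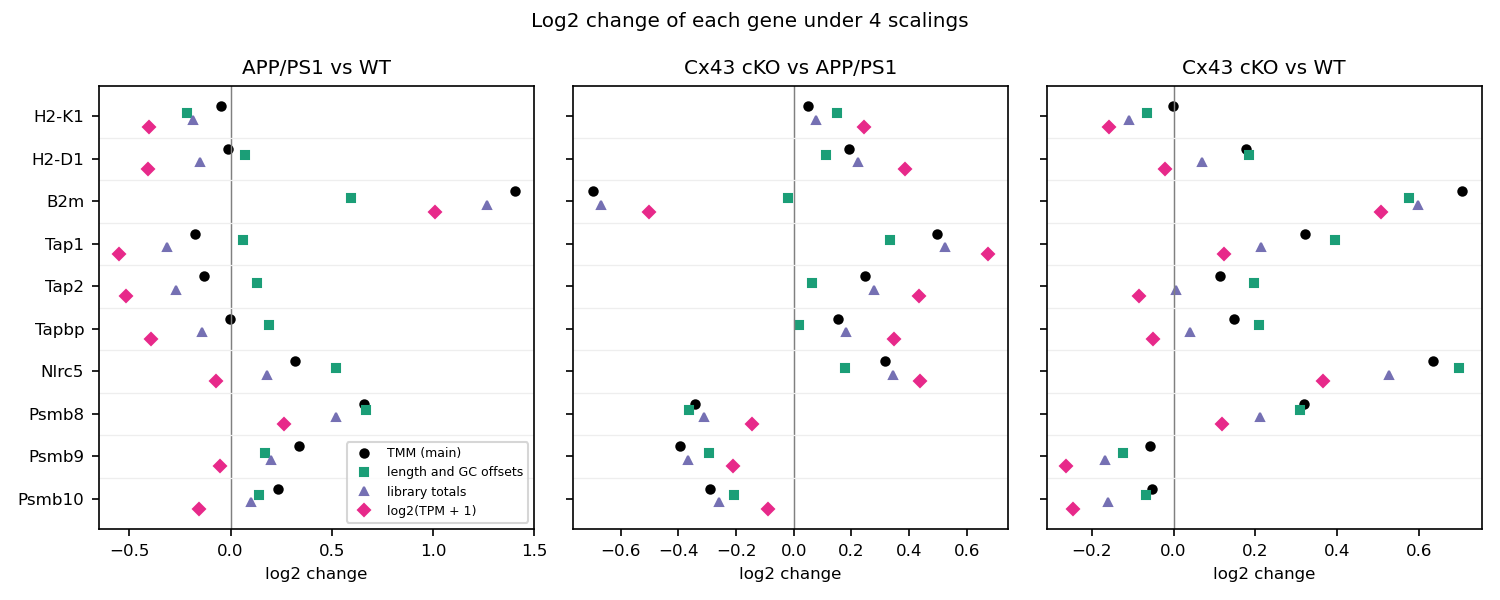
Log2 change of each gene (horizontal axes, a separate scale per panel) under TMM scaling, length and GC offsets, library totals and log2(TPM + 1). Markers for B2m in Cx43 cKO against APP/PS1 run from -0.70 to -0.02, and those for Tap1 from 0.33 to 0.67.

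Scaling moves all genes together as well. The median over all tested genes in APP/PS1 against WT was -0.04 with TMM, -0.17 with library totals and -0.35 on log2(TPM + 1). Measured from the median of its own scale, Psmb9 stood at 0.37 with TMM, 0.37 with totals and 0.30 with TPM, Nlrc5 at 0.36, 0.36 and 0.28, and Psmb10 at 0.27, 0.27 and 0.19. From that median, all 3 genes were above 0 on each of these scales. H2-K1 stood at -0.01 with totals and -0.05 with TPM, H2-D1 at 0.02 and -0.06, and Tapbp at 0.03 and -0.05, so their lower calls on these scales lay close to the shift of all genes. The medians in Cx43 cKO against WT were -0.12 with totals and -0.17 with TPM, from which H2-K1 stood at 0.01 on each, Psmb9 at -0.05 and -0.09, and Psmb10 at -0.04 and -0.08.

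Beyond the 10 genes, the proteasome core moved together. All 14 constitutive 20S subunits were called higher in APP/PS1 than WT (median log2 change 0.92, against -0.04 over all tested genes), all 14 were called lower in Cx43 cKO than APP/PS1 (median -0.60), and 13 of 14 were called higher in Cx43 cKO than WT (median 0.27). The shares of all tested genes called in those directions were 26.9%, 27.7% and 24.7%. Psmb6 (1.37) and Psmb1 (1.21) rose most in APP/PS1, and Psmb1 (-0.95) and Psma3 (-0.86) fell most in Cx43 cKO. With length and GC offsets, 13 were called higher, 10 lower and 10 higher in the same 3 comparisons, with medians of 0.55, -0.30 and 0.20. On log2(TPM + 1), 6 of the 14 were called in Cx43 cKO against WT.

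Assembly factors and activators were mostly higher in APP/PS1 and mostly lower in Cx43 cKO with TMM scaling. Of 9 genes, 7 were called higher and 2 lower in APP/PS1 against WT, and 2 higher and 7 lower in Cx43 cKO against APP/PS1, with medians of 0.61 and -0.58. Pomp, the chaperone of 20S assembly that favours immunoproteasomes, rose from 62.3 ± 2.78 to 161 ± 3.43 CPM in APP/PS1 and was 91.1 ± 3.17 in Cx43 cKO. Psmg4, another assembly chaperone, had log2 changes of 1.28 and -0.87 (0.76 and -0.49 with length and GC offsets). Psme2, a subunit of the interferon-inducible PA28 cap, was 54.6, 102 and 74.8 CPM (log2 0.91 and -0.45), and with length and GC offsets its log2 changes were 0.32 and -0.00125, the latter not called (edgeR adjusted p 0.980). With length and GC offsets the calls in this list were 4 higher and 3 lower, then 3 higher and 4 lower, with medians of 0.03 and -0.19. Of the loading and trimming genes, 4 of 9 were called higher and 4 lower in APP/PS1 against WT (median -0.08). In Cx43 cKO against APP/PS1, 4 were called higher and 3 lower (median 0.03). These counts are to be read against the same shares of tested genes. In Cx43 cKO against WT, 4 were called higher (median 0.06), against 24.7% of tested genes, with 47.7% called in either direction. Library totals, TPM and FPKM each gave 7 calls there. Canx (calnexin, which folds new heavy chains) had log2 changes of 0.64, -0.31 and 0.33, and Pdia3 (ERp57, a partner of tapasin) 0.39, -0.13 and 0.26, the first of which was near 0 on log2(TPM + 1). Ganab, a glucosidase that trims glycans for calnexin binding, was lower in APP/PS1 (-0.20, or -0.07 with length and GC offsets) and higher in Cx43 cKO (0.35 against APP/PS1).

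Other class I and class I-like genes went in both directions. Of 18 listed, 16 passed the low-count filter (H2-T3 and H2-M5 did not). In APP/PS1 against WT, 3 were called higher, against 26.9% of tested genes, and 8 lower, against 32.0% (median -0.18). In Cx43 cKO against APP/PS1, 1 was called higher, against 27.3%, and 5 lower, against 27.7% (median -0.06). In Cx43 cKO against WT, 3 were called higher, against 24.7%, and 8 lower (median -0.31), where 47.7% of tested genes were called in either direction. Length and GC offsets gave 2 higher and 10 lower, 2 higher and 3 lower, and 2 higher and 10 lower, with medians of -0.24, 0.04 and -0.32. H2-Q10, a secreted class I molecule, was 7.24 ± 0.733 CPM for WT, 2.47 ± 0.204 for APP/PS1 and 5.88 ± 1.07 for Cx43 cKO. Cd1d1, which presents lipids, was lower in APP/PS1 (log2 -0.71) and in Cx43 cKO (-0.76) than in WT. H2-M3, which presents formylated peptides, was higher in APP/PS1 (0.46, or 0.22 with the offsets) and lower in Cx43 cKO than APP/PS1 (-0.39, or -0.22).

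Regulators of class I transcription went in both directions. Of 15 genes, 2 were called higher and 7 lower in APP/PS1 against WT, 6 higher and 2 lower in Cx43 cKO against APP/PS1, and 6 higher and 4 lower in Cx43 cKO against WT, with medians of -0.03, 0.08 and 0.10. Length and GC offsets turned the balance in APP/PS1 against WT to 7 higher and 4 lower (median 0.04) and gave 4 higher and 3 lower in Cx43 cKO against APP/PS1. On log2(TPM + 1), 14 of the 15 were called between APP/PS1 and WT. Irf1, the interferon regulatory factor that induces Tap1 and Psmb9, was 429, 437 and 446 CPM for WT, 314, 312 and 323 for APP/PS1, and 292, 297 and 308 for Cx43 cKO. It was lower than WT in both (log2 -0.47 and -0.55, edgeR adjusted p 2.61e-13 and 1.68e-14), without overlap. Stat2, a transcription factor downstream of interferon receptors, was higher in Cx43 cKO than APP/PS1 by log2 0.42. Nfyb, which binds the CCAAT box, rose in APP/PS1 against WT with TMM scaling (0.46) and was 0.07 on log2(TPM + 1) (limma adjusted p 0.203). Ciita, the class II counterpart of Nlrc5, fell there with TMM scaling (-0.45) and was -0.18 with length and GC offsets (edgeR adjusted p 0.285). Among 10 interferon, receptor and kinase genes, 3 were called higher and 5 lower in APP/PS1 against WT, 5 higher and 2 lower in Cx43 cKO against APP/PS1, and 4 higher and 2 lower in Cx43 cKO against WT. The shares of all tested genes given for the regulators apply to these counts as well. Ifng was low in all groups, at 1.17 ± 0.304, 3.64 ± 0.220 and 2.55 ± 0.23 CPM (log2 1.64 in APP/PS1 against WT), and 8 markers of T and NK cells, its usual sources, summed to 40.4 to 41.4, 56.7 to 58.2 and 43.9 to 45.7 CPM. Kinases Jak2 and Tyk2 were higher in Cx43 cKO than APP/PS1 by 0.37 and 0.30 (0.41 and 0.11 with length and GC offsets), and Tyk2 was lower in APP/PS1 than WT (-0.45, or -0.17 with offsets).

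Class I genes are expressed in all nucleated blood cells, and the leukocyte markers moved between the groups. All 10 neutrophil markers and 6 of 8 monocyte and dendritic cell markers were higher in Cx43 cKO than APP/PS1. With TMM scaling H2-D1, Tap1, Tap2, Tapbp and Nlrc5 were called higher there, B2m, Psmb8, Psmb9 and Psmb10 were called lower, and H2-K1 was not called. Other leukocyte lists differed: 1 of 6 border macrophage markers (summed 527 to 539 CPM for WT, 378 to 393 for APP/PS1 and 340 to 354 for Cx43 cKO) and 2 of 8 T and NK cell markers were higher in that comparison, and 5 of 6 B cell markers were (30.4 to 32.9, 10.1 to 11.6 and 19.6 to 20.7 CPM). Markers of erythroid cells (7) summed to 1187 to 1242 CPM for WT, 247 to 275 for APP/PS1 and 95.7 to 106 for Cx43 cKO. Against WT, APP/PS1 had the lower neutrophil and monocyte sums, with Tap1 and Tap2 called lower and B2m, Nlrc5 and the immunoproteasome subunits called higher on TMM scaling. The part of these cells in the results was not tested.

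For B2m and Nlrc5, profiles of mean-centred log2 CPM over the 9 libraries were compared across 9162 tested genes with a mean of at least 10 CPM, as a description. The profiles most like B2m were those of Slamf9 (root mean square difference 0.0632), Tmsb4x (0.0741) and Psmb6 (0.0784), and 8 genes lay within 0.1. For Nlrc5 they were Chn2 (0.0490), Atxn10 (0.0546) and Peak1 (0.0573), and 66 genes lay within 0.1. The points compared share their libraries, groups and depth.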

How the data were processed

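Per the labels' protocols, poly-A libraries were read on the DNBSEQ platform, single-end at 50 nt. Per the submitters' processing notes the build was GRCm38.p6 and the tools named were HISAT, Bowtie2 and DESeq2, without versions or roles. Per the file headers, the deposited table has 4 columns per library: estimated counts, FPKM, TPM and normalised counts. The deposited estimated counts, which have decimals, were rounded here to whole numbers. The deposited FPKM and TPM, made by the authors, were used as alternatives and TPM for levels and ratios. The deposited normalised count, a signal scaled per library by the authors, was not used in a test.

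The main test was the edgeR 4.0.16 quasi-likelihood test (R 4.3.3, TMM scaling, filterByExpr, robust, all 9 libraries in a single fit), with Benjamini-Hochberg adjustment over the 14696 tested genes. Exact permutation tests of ratios were two-sided. Lengths and GC contents of transcripts were taken from GENCODE M21, which matched 17905 of 18571 genes, and offsets used 10 bins of each. Alternatives were DESeq2 1.42.0, limma 3.58.1, other scalings and filters, log2 of TPM or FPKM, the replicate number as a block, and leaving out each library. The edgeR, limma and DESeq2 tests were run on simulated counts, as was the removal of a length trend by the offsets. The ratio tests, the replicate block, the TPM and FPKM fits and the motif search were not simulated. Named genes are the 10 members, the 3 constitutive counterparts, at most 2 called genes per list and comparison with the largest change, Gja1, Cx3cr1 and Ddx3y, and the 3 closest profiles to B2m and Nlrc5; a gene that this rule names is not reported here. The members and lists were chosen with earlier results of these data known.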

Additional observations from a re-analysis of the deposited data

How the results depend on the processing

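Of the 10 genes, B2m and Psmb8 (APP/PS1 against WT), H2-D1, Tap1, Nlrc5, Psmb8 and Psmb9 (Cx43 cKO against APP/PS1), and B2m, Nlrc5 and Psmb8 (Cx43 cKO against WT) kept direction and call under all 23 alternatives. The causes of the changes below were not tested.

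Genes called higher in APP/PS1 against WT (5) were 2 on log2(TPM + 1) and log2(TPM + 0.1), 3 on log2(FPKM + 1), and 8 with length and GC offsets, with or without the replicate block. Genes called lower there (2) were 1 with DESeq2 size factors, the DESeq2 Wald test, only the groups compared, the offsets or an adjusted p of 0.01, 5 with library totals or FPKM, 6 on either TPM scale, and 1 to 2 with a library left out. In Cx43 cKO against WT, genes called higher (6) were 3 on either TPM scale, and genes called lower (0) were 3 with library totals or TPM, 1 with FPKM or the offsets, and 2 with offsets and block. In lists, called regulators in APP/PS1 against WT (9) were 14 on TPM. In Cx43 cKO against WT, called loading genes (4) were 7 with totals, TPM or FPKM and 8 with the block, called 20S subunits (13) were 6 on TPM, and called activators and assembly factors (5) were 3 with the DESeq2 Wald test, the offsets or an adjusted p of 0.01 and 3 to 5 with a library left out, the 3 being without WT replicate 3.

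In APP/PS1 against WT, Gja1 (log2 0.24) was 0.10 with totals and with FPKM, and reversed on TPM (-0.14 and -0.15). H2-D1 reversed with DESeq2 size factors (0.00471), the Wald test (0.00672), only the groups compared (0.022) and offsets (0.072 for each). Tapbp reversed in the same settings (0.014, 0.016, 0.031, 0.191 and 0.190). With offsets Tap1 was 0.061 and Tap2 0.132. On the 2 TPM scales Nlrc5 was -0.072 and -0.081, Psmb9 -0.050 and -0.051, Psmb10 -0.156 and -0.158, and Pdia3 -0.000871 and -0.000872. In Cx43 cKO against WT, H2-K1 (log2 -0.00046) was 0.025 with DESeq2 size factors, 0.024 with the Wald test and 0.00064 with only the groups compared, and on TPM H2-D1 was -0.020, Tap2 -0.083 and -0.084, and Tapbp -0.050. From the offset fit, log2 ratios reversed for Psmb8/Psmb5 in APP/PS1 against WT (0.45) and in Cx43 cKO against APP/PS1 (-0.28), and for Psmb9/Psmb6 in the latter (-0.083). With a library left out, log2 Psmb8/Psmb5 in APP/PS1 against WT ran from -0.061 to 0.037, while H2-D1 ran from -0.043 (without WT replicate 1) to 0.011 (without APP/PS1 replicate 1), at 0.00402 without WT replicate 2, Tapbp from -0.023 (without WT replicate 1) to 0.00685 (without WT replicate 2), at 0.00183 without WT replicate 3 and 0.00403 without APP/PS1 replicate 3, and H2-K1 in Cx43 cKO against WT from -0.019 (without Cx43 cKO replicate 2) to 0.026 (without Cx43 cKO replicate 1), at 0.012 without WT replicate 2.

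Of calls over all genes, 45.7%, 49.6% and 51.9% were higher in the 3 comparisons with TMM, against 29.5%, 54.8% and 30.4% with library totals, 30.2%, 54.5% and 32.1% with FPKM, and 14.7%, 75.3% and 19.9% on log2(TPM + 1). Deviations of same-numbered libraries correlated at 0.079 to 0.308 over 10808 genes, 8 of 9 pairs over 0.1 (the exception being WT replicate 3 with Cx43 cKO replicate 3). Of 18 pairs with different numbers, 1 was over 0.1 (APP/PS1 replicate 3 with Cx43 cKO replicate 2). In all, 17 of 18 comparisons were best with the own number, a hint from the data and not from the labels. With the replicate block the results of 74 tests were the same, and 3 calls were gained: H2-K1 in APP/PS1 against WT (-0.05, edgeR adjusted p 0.000275) and in Cx43 cKO against APP/PS1 (0.05, edgeR adjusted p 0.000390), and Tap2 in Cx43 cKO against WT (0.11, edgeR adjusted p 0.0230). Depth limits the low genes, such as Ifng at 1.17 CPM in WT.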
